A study of Mus musculus with 9 samples.

Results

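The 48 genes described here encode proteins that condense chromosomes, build the spindle, attach chromosomes to it and divide the cell. They were given as a list of symbols, drawn up with earlier results of these data known, and all 48 were found by their Ensembl identifiers among the 55704 genes of the deposited table. RNA was measured by bulk RNA-seq in neural stem cells (NSCs) that had been isolated from the subventricular zone (SVZ) of C57BL/6 mice aged 8 to 9 weeks, with 2 female and 2 male mice pooled per isolation, and had gone through at least 3 passages before use. All cells were first grown in suspension with bFGF and EGF and then plated on poly-L-ornithine and laminin in the same factors for 16 to 18 h. The bFGF/EGF-treated NSCs were collected at that point (day 0), the bFGF/BMP4-treated NSCs were collected 6 days after EGF had been replaced by BMP4, and the BMP4-treated NSCs were collected after 6 days with BMP4 as the only one of these factors. Each factor was used at 20 ng/mL. Every group had 3 libraries, which the submitters called biological replicates. The labels do not say whether each came from its own isolation, so the p-values below measure the spread between these libraries. The bFGF/EGF group is the control of both other groups and differs from them in time in culture as well as in medium, and these cannot be told apart.

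Entry into mitosis is driven by cyclin B bound to Cdk1, helped by Plk1 and the Aurora kinases. Condensin and topoisomerase II compact the chromosomes, the kinetochore couples them to spindle microtubules, and the spindle assembly checkpoint holds back the anaphase-promoting complex (APC/C) until every kinetochore is attached. Separase then cuts the cohesin that holds sister chromatids together, and the central spindle directs cytokinesis. Most of these genes are transcribed in G2 and M phase, so their RNA is commonly used as a sign of proliferating cells, and adult NSCs that leave the cell cycle to become quiescent lose it.

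The deposited values are FPKM, fragments scaled by the length of the gene and the size of the library, so levels can be compared between libraries. The gene lengths used for this are not stated, so comparisons of levels between genes are approximate. Whole fragment numbers could be rebuilt from the FPKM values (to within 0.05) for all 27169 genes that were above 0 in at least 2 libraries. They added up to 15892523 to 17419366 fragments on genes per library. The fewest fragments of any of the 48 genes in a library were 18, for Ccnb2 in BMP4 replicate 1. All 7 NSC markers that were checked (Nes, Sox2, Vim, Slc1a3, Fabp7, Prom1 and Pax6) were above 1 FPKM in at least 1 group, and they summed to 1670 to 1770 FPKM with bFGF/EGF, 659 to 763 with bFGF/BMP4 and 1420 to 1880 with BMP4. Markers of other cells moved with the groups as well. All 6 markers shared by quiescent NSCs and astrocytes were above 1 FPKM and summed to 59.2 to 81.4, 648 to 743 and 3640 to 4510 FPKM in the same order. The 6 neuroblast and neuron markers (4 above 1 FPKM) summed to 73.9 to 87.9, 47.0 to 52.1 and 141 to 211 FPKM, and the 6 ependymal markers (3 above 1 FPKM, Tmem212 at 0) to 8.34 to 12.6, 11.1 to 11.7 and 57.8 to 69.9 FPKM. The sums of 6 markers each for oligodendrocyte lineage, microglia or blood, endothelial (Cldn5 at 0) and mural cells reached at most 26.5, 1.75, 4.18 and 1.77 FPKM, in each case in the BMP4 group. The part of these cells in the results below was not tested. In bulk RNA, fewer dividing cells and less of a transcript per dividing cell cannot be told apart.

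Replicate 1 of the bFGF/EGF group stood apart for these genes. It held the highest value of its group for 47 of the 48, against 31.8% of all genes tested, and the summed level of the 48 genes on the TPM scale (FPKM rescaled so that every library has the same total) was 4470 in it, against 2400 and 2380 in replicates 2 and 3. In the bFGF/BMP4 group the sums were 817, 1050 and 1130, and replicate 1 was the lowest for 45 of the 48 genes (42.8% of all genes). The BMP4 libraries lay close together at 335, 321 and 344. The coefficient of variation of a member between replicates had a median of 43.0% with bFGF/EGF, 21.4% with bFGF/BMP4 and 12.4% with BMP4, while that of all genes was 20.7%, 16.7% and 20.0%. The spread of the 48 genes was therefore wide in proliferating NSCs and narrow in BMP4-treated NSCs. For both comparisons with bFGF/EGF, the number of the 48 called and their median are given below with and without bFGF/EGF replicate 1. Other counts and percentages include that library unless stated.

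Replicates 2 and 3 of the bFGF/EGF group, although equal in their sums, differed gene by gene. Replicate 2 was higher for 27 of the 48 genes, and Spearman's correlation of the log2 ratio of both libraries with exon length was -0.53 over the 48, against -0.06 over 19809 genes tested. Of the 24 members with the shorter exons (1948 to 6230 bases), 18 were higher in replicate 2, with a median log2 ratio of 0.45, and of the 24 longer ones (6476 to 16565 bases) 9 were, with a median of -0.31. Over all genes tested, the 12966 with exons shorter than 6476 bases had a median of 0.08 and the 6843 others a median of -0.02. Exon lengths here are those of GENCODE vM39, and the lengths behind the FPKM values are not stated. The genes share the libraries and are not independent points, so this is a description only.

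**Figure D1:**
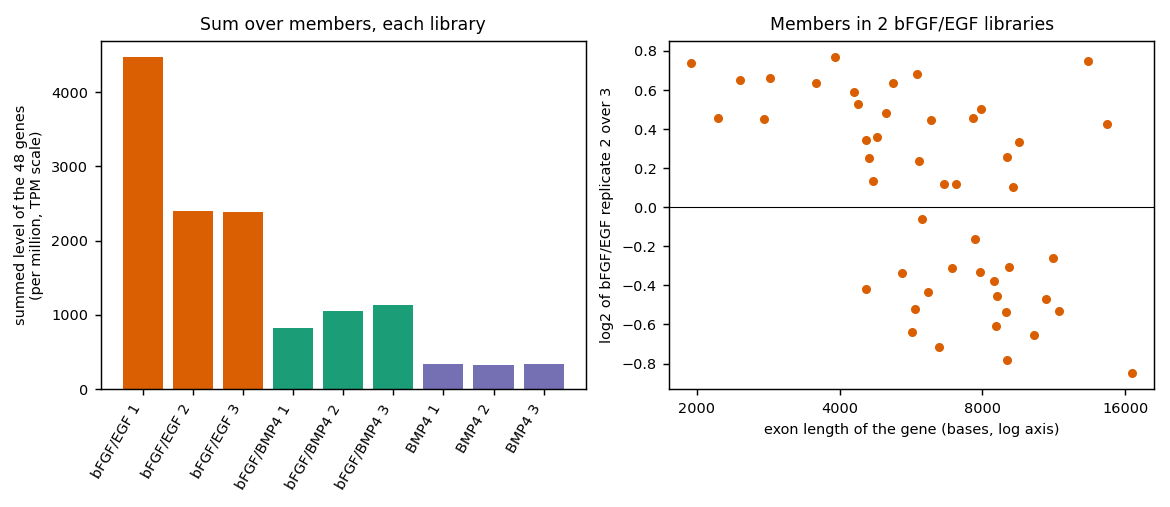
Left, summed level of the 48 genes on the TPM scale in each of the 9 libraries, from 4470 in bFGF/EGF replicate 1 to 321 in BMP4 replicate 2. Right, log2 ratio of bFGF/EGF replicate 2 over replicate 3 (y axis) against exon length in bases (x axis, log axis), 1 point per member, in which shorter genes lie mostly above 0 and longer ones mostly below.

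Both BMP4-containing groups were parallel cultures of 6 days, so a step or fall below compares groups and is not a course in time. The first step is bFGF/BMP4 against bFGF/EGF and the second is BMP4 against bFGF/BMP4. Most of the mitotic genes were highest with bFGF/EGF, lower with bFGF/BMP4 and lowest with BMP4. The group means had this order for 46 of the 48 genes, and for 44 of them the 3 libraries of each group did not overlap with those of the next, an arrangement found in 5.8% (1171) of the 20207 genes tested. Taken by comparison, all 3 libraries were lower for 45 of the 48 in bFGF/BMP4 than in bFGF/EGF (27.5% of all genes), for 47 in BMP4 than in bFGF/EGF (27.8%) and for 46 in BMP4 than in bFGF/BMP4 (18.3%). The median member kept 31.2% of its bFGF/EGF level with bFGF/BMP4 and 7.16% with BMP4, and 34 of the 48 genes were under 10% of it in BMP4-treated NSCs. The share of all genes under that line was not counted. The plot of all 48 genes by library shows the 3 groups as separate bands in most rows, with securin (Pttg1), Bub3, Spc25 and Cenpf as the exceptions.

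**Figure D2:**
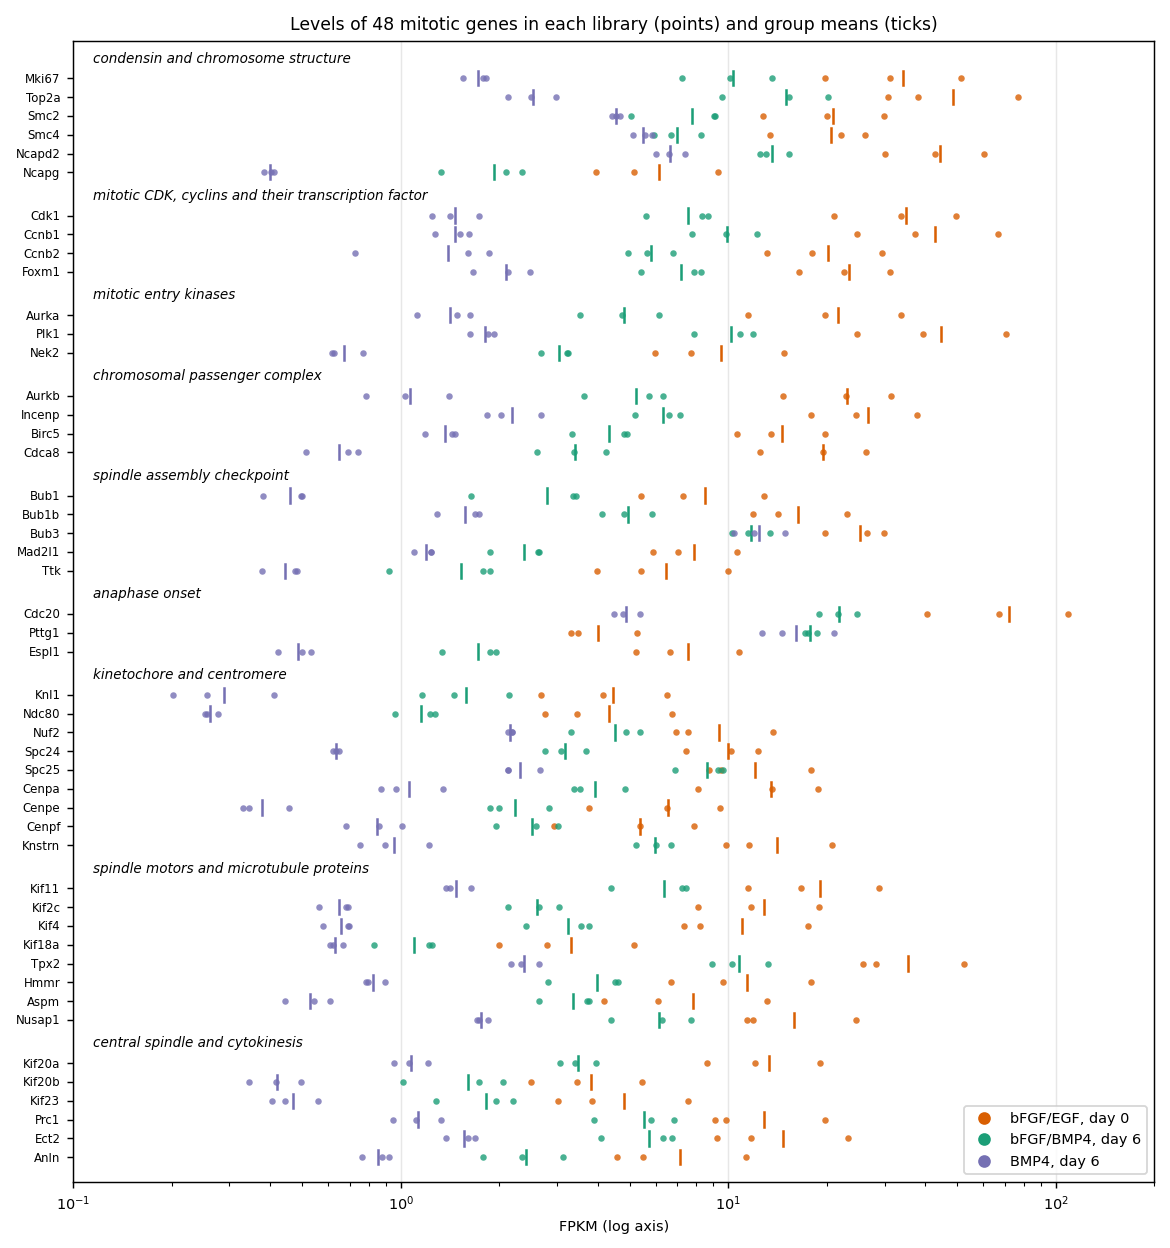
FPKM of the 48 mitotic genes in each of the 9 libraries (points, log axis), with the mean of each group as a tick (n = 3), grouped by role. For 46 genes the means run from bFGF/EGF (highest) through bFGF/BMP4 to BMP4 (lowest), while Pttg1 is lowest in bFGF/EGF and Bub3 is at about the same level in both BMP4-containing media.

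Differences were tested by limma, fitted to log2(FPKM + 0.1) of all 20207 genes with a mean of at least 0.1 FPKM, which all 48 members passed. A gene was called where the fold change was at least 2 and the adjusted p no higher than 0.05. Fold changes on this scale understate the change of genes with low values. In bFGF/BMP4-treated compared with bFGF/EGF-treated NSCs, 44 of the 48 genes were lower, where 14.1% of all genes tested were called lower, and 1 was higher (16.5% of all genes). The median log2 fold change of the 48 was -1.61, against 0.06 over all genes. Nuf2, Spc25 and Cenpf were the 3 not called. Without bFGF/EGF replicate 1 the median was -1.26, and 36 genes were called lower, with Bub3, Knstrn, Aspm, Nusap1, Kif20b, Kif23, Prc1 and Ect2 no longer among them (values without it from -0.96 for Bub3 to -0.59 for Aspm).

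In BMP4-treated compared with bFGF/EGF-treated NSCs, 47 of the 48 genes were lower (15.4% of all genes tested) and 1 was higher (21.3%), with a median of -3.49 against 0.10 over all genes. This median was -3.15 without bFGF/EGF replicate 1, and 46 genes were then called lower and 1 higher. In BMP4-treated compared with bFGF/BMP4-treated NSCs, 41 were lower (5.14% of all genes) and none was higher (8.41%), with a median of -1.82 against 0.00. Only 1 member, Bub3, had a value above 0 there, and 0 of the 48 were higher at an unadjusted p under 0.05 in limma or called higher by limma-voom. Smc2, Smc4, Bub3, Mad2l1, Pttg1, Nuf2 and Kif18a were not called. The bFGF/BMP4 libraries take part in both steps and the bFGF/EGF libraries in 2 of the comparisons, so these results are not independent of each other. Of the 48 genes, 39 were called lower at both steps, where the share of all genes cannot exceed the 5.14% called lower at the second. Many of them also stand in a list of cell cycle genes that the study compiled, whose choice may have used these libraries, so their direction is not independent evidence.

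Among the promoters of these genes, a pair of short elements was common. The CHR element, TTTGAA, is bound by the MuvB complex that represses such genes in quiescent cells and, with B-Myb and Foxm1, activates them in G2, and the CCAAT box is bound by NF-Y. Both were searched on both strands, in windows from 250 bases before to 50 bases after each start in the RefSeq promoter table (GRCm38.p6), which holds 44 promoters of 41 of the members and 32851 in all. The promoters of Incenp, Tpx2, Foxm1, Kif20a, Spc24, Aurkb and Smc4 were not analysed here. TTTGAA within the part from 100 bases before the start to the end of the window was found in 68.2% of the members' promoters (30 of 44), in 8.01% of all promoters and in 7.69% of 39 promoters of DNA replication genes. At least 1 CCAAT was present in 72.7%, 37.4% and 61.5%, and 2 or more in 50%, 11.7% and 38.5%. TTTGAA in that part together with 2 or more CCAAT boxes was found in 38.6% of the members' promoters, 0.998% of all promoters and 5.13% (2 of 39) of the promoters of replication genes. The replication genes, which are transcribed earlier in the cycle, thus had the CCAAT box often, and TTTGAA near the start in about the same share as all promoters.

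The promoters of 6 members are printed below as examples of sequences that hold these elements. They belong to the members with the largest falls in BMP4-treated compared with bFGF/EGF-treated NSCs among those with TTTGAA inside the stretch that could be printed. Cdca8, Plk1, Mki67, Kif4, Cdc20, Aurka, Ncapg, Hmmr and Ndc80 fell by more than the last of the 6 but were not printed. Either their TTTGAA lay beyond that stretch or their window had no single exact match on GRCm39. The sequences are read 5′ to 3′ on the gene's strand from 220 bases before the start and end at or near the start so as to hold at most 30 bases of the gene's annotated exons. TTTGAA and CCAAT, or their reverse complements TTCAAA and ATTGG, are in capitals. Placed on GRCm39 by an exact match, the windows were chr10:69188743-69188962 for Cdk1, chr11:98915033-98915235 for Top2a, chr4:117035940-117036189 for Kif2c and chr9:70328845-70329056 for Ccnb2, all on the minus strand, and chr15:102204508-102204730 for Espl1 and chr19:37364610-37364828 for Kif11, both on the plus strand. The Cdk1 and Kif2c windows lie inside the annotated genes (chr10:69170976-69236595 and chr4:117016830-117039836), at internal starts. They are not the promoters at the outermost starts of these genes.
Cdk1: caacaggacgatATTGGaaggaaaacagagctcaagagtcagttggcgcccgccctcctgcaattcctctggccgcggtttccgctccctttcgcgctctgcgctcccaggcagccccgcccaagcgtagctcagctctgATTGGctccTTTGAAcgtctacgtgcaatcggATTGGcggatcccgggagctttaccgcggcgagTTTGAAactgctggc
Top2a: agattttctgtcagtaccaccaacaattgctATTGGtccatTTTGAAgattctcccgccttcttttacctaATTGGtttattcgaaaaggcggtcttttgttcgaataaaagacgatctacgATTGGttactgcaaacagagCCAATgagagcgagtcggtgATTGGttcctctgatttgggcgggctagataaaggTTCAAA
Kif2c: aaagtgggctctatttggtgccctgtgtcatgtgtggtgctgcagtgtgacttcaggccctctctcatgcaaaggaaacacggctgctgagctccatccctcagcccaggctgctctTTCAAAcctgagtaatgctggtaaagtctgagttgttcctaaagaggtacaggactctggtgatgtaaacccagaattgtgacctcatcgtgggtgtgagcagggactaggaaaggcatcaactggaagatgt
Ccnb2: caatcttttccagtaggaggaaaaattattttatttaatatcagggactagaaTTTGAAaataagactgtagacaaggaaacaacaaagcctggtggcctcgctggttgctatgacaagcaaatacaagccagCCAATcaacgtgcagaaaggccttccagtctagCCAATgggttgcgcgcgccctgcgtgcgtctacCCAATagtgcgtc
Espl1: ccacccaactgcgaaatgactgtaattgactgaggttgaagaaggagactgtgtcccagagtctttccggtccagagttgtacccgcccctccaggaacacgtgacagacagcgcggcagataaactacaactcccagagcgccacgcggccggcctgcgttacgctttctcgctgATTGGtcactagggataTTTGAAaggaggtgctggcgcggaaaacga
Kif11: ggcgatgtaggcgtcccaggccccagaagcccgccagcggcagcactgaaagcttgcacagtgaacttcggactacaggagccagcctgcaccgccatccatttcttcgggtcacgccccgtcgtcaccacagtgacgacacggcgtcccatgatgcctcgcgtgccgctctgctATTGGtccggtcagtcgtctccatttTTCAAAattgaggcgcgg
In Cdk1 the first bases of the 2 TTTGAA elements were 71 and 15 bases before the start, and those of the 3 CCAAT boxes 208, 80 and 48 bases before it. Top2a had 2 TTTGAA elements, of which the one nearer the start began 23 bases before it, and 6 CCAAT boxes, 5 of them in the printed part. Ccnb2 also had 2 TTTGAA elements, and the printed one began 167 bases before the start. The one counted as near began at base 5 counted from the start and lies beyond the printed part. In Espl1 and Kif11 a single CCAAT box began 44 and 45 bases and a single TTTGAA 27 and 19 bases before the start. At its internal start Kif2c had TTTGAA 103 bases before, just outside the part counted as near, and no CCAAT. A match to these letters is a description of the sequence, and no binding was measured here.

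The falls of members with and without the elements are given as medians, and the differences between them were not tested. The 28 members with TTTGAA near the start had median log2 fold changes of -1.60 (bFGF/BMP4 against bFGF/EGF), -3.50 (BMP4 against bFGF/EGF) and -1.92 (BMP4 against bFGF/BMP4), and the 13 without it -1.5, -3.29 and -1.70. In BMP4 against bFGF/EGF, the 20 members with 2 or more CCAAT boxes had a median of -3.63, the 9 with 1 box -3.50 and the 12 with no box -2.93, and the medians had the same order in the other comparisons (-1.64, -1.5 and -1.40 in bFGF/BMP4 against bFGF/EGF, and -2.08, -1.98 and -1.62 in BMP4 against bFGF/BMP4). Bub3, the member with the smallest fall, held both elements, and neither was found in the window of Pttg1.

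**Figure D3:**
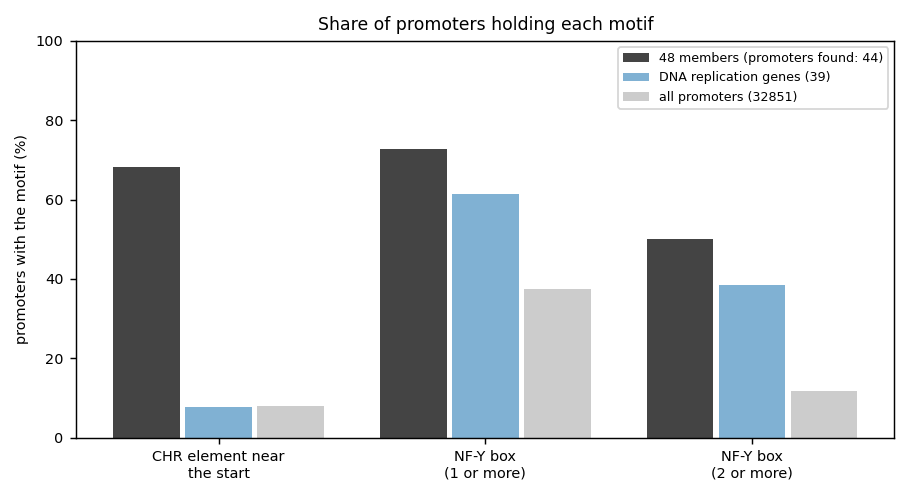
Share of promoters (%) that hold TTTGAA from 100 bases before the start (labelled CHR element), at least 1 CCAAT and at least 2 CCAAT (labelled NF-Y box), for the members' 44 promoters, 39 promoters of DNA replication genes and all 32851 promoters. TTTGAA near the start is at 68.2% in the members and at about 8% in both other sets.

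The genes of the cyclin B and Cdk1 kinase had the largest median fall of the 9 roles in BMP4-treated compared with bFGF/EGF-treated NSCs. The 4 genes of mitotic Cdk1, its cyclins and Foxm1, a transcription factor of G2 and M phase genes, were lower in each comparison, with median log2 fold changes of -1.86, -4.09 and -2.17 (bFGF/BMP4 against bFGF/EGF, BMP4 against bFGF/EGF and BMP4 against bFGF/BMP4, the order used throughout). Ccnb1, a cyclin partner of Cdk1, was at 66.4, 37.2 and 24.7 FPKM in bFGF/EGF replicates 1 to 3, at 7.73, 9.86 and 12.2 in bFGF/BMP4 and at 1.27, 1.52 and 1.62 in BMP4. Every library of a group was thus below every library of the one before it. Its level in BMP4 was 3.44% of that in bFGF/EGF (log2 fold change -4.66 with a standard error of 0.31, adjusted p = 1.4e-06, limma). For Ccnb2 the libraries held 29.5, 18.0 and 13.1 FPKM, then 4.96, 5.66 and 6.79, then 0.724, 1.61 and 1.86. The groups did not overlap, but BMP4 replicate 1 was well below the other BMP4 libraries. Ratios of 10 pairs of partner genes were compared between the groups by an exact permutation test (two-sided, 30 tests), which cannot give less than p = 0.1 with 3 libraries against 3, so none could pass an adjusted threshold (smallest adjusted p = 0.13). The pairs were chosen with earlier results of these data known. How often ratios of other gene pairs differ without overlap was not examined, so all ratios here are descriptions. The ratio of Ccnb1 to Ccnb2 was 2.07 ± 0.18, 1.70 ± 0.12 and 1.19 ± 0.49 (mean ± SD, n = 3), with exact permutation p of 0.1 for both comparisons with bFGF/EGF and 0.3 between the BMP4-containing media (adjusted 0.13 and 0.36). Foxm1 fell less far than the cyclins, to 30.7% and then 8.94% of its bFGF/EGF level (log2 fold change -3.39 in BMP4 against bFGF/EGF, adjusted p = 2.8e-06, limma). It shares 6.13% of its exon bases with Rhno1 on the opposite strand, and whether the authors counted by strand is not stated.

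The kinases Plk1, which has roles from mitotic entry to cytokinesis, Aurka, which matures centrosomes and the spindle, and Nek2, which separates centrosomes, were called lower in all 3 comparisons (medians -2.01, -3.72 and -2.03). Plk1 (chr7:121758646-121769108) was at 70.4, 39.2 and 24.7 FPKM with bFGF/EGF, 7.87, 10.9 and 11.9 with bFGF/BMP4 and 1.93, 1.85 and 1.63 with BMP4. The bFGF/EGF libraries spread widely and the BMP4 libraries lay close together, and no groups overlapped. Its log2 fold changes were -2.01, -4.43 and -2.42 (standard error 0.32 each, adjusted p = 5.4e-04, 2.3e-06 and 4.6e-04, limma). Compared with bFGF/EGF, Aurka had log2 fold changes of -2.04 and -3.72, and Nek2 of -1.5 and -3.54. Aurka shares 25.2% of its exon bases with Fam210b on the opposite strand, which was at 1.01, 4.57 and 2.43 FPKM in the 3 groups, against 21.6, 4.81 and 1.41 for Aurka. It also shares 7.5% with Cstf1 on the opposite strand, which was at 16.1, 9.0 and 7.43 FPKM.

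The chromosomal passenger complex, in which Incenp, survivin (Birc5) and borealin (Cdca8) place the kinase Aurora B (Aurkb) on centromeres and later on the central spindle, was lower as a whole. All 4 of its genes were called in each comparison, with medians of -2.05, -3.89 and -1.88. Cdca8 (chr4:124812257-124833104) held 26.4, 19.5 and 12.5 FPKM with bFGF/EGF, 2.6, 3.39 and 4.24 with bFGF/BMP4 and 0.690, 0.739 and 0.515 with BMP4. It had the most negative value of the 48 in bFGF/BMP4 against bFGF/EGF (-2.44, with a standard error of 0.28, adjusted p = 6.1e-05, limma) and was at 3.32% of the bFGF/EGF level in BMP4. The size of the fall differed between genes of the complex in these libraries, but the ratios could pass no adjusted threshold. The ratio of Cdca8 to Birc5 was 1.33, 1.45 and 1.18 in the bFGF/EGF libraries, 0.780, 0.707 and 0.866 in bFGF/BMP4 and 0.482, 0.503 and 0.432 in BMP4, with no overlap between groups (exact permutation p = 0.1, the smallest possible, for each comparison). The ratio of Aurkb to Incenp was 0.861 ± 0.060, 0.818 ± 0.10 and 0.515 ± 0.20 (mean ± SD, n = 3, exact permutation p = 0.7 between bFGF/BMP4 and bFGF/EGF).

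Condensin and chromosome structure genes were all lower at the first step and parted at the second. All 6 were called lower in both comparisons with bFGF/EGF (medians -1.60 and -3.11), and 4 of the 6 in BMP4 against bFGF/BMP4 (median -1.5). Smc4, an ATPase subunit of both condensins (chr3:68911944-68941960), was at 26.2, 13.4 and 22.1 FPKM with bFGF/EGF, 5.94, 8.23 and 6.71 with bFGF/BMP4 and 5.84, 5.56 and 5.13 with BMP4. All BMP4 libraries lay below the bFGF/BMP4 ones, but by less than the threshold (log2 fold change -0.32 with a standard error of 0.23, adjusted p = 0.39, limma). Smc2, its partner ATPase, likewise had -0.71 there (adjusted p = 0.14, limma), and the 2 genes kept 26.8% and 21.8% of the bFGF/EGF level in BMP4. Ncapg, a subunit of condensin I, instead fell from 1.33, 2.35 and 2.09 FPKM in bFGF/BMP4 to 0.383, 0.411 and 0.403 in BMP4, from 3.94 to 9.32 in bFGF/EGF. The ratio of Ncapg to Smc4 was accordingly 0.294 ± 0.062, 0.274 ± 0.045 and 0.0727 ± 0.0065 (mean ± SD, n = 3), and it was lower in every BMP4 library than in every other library (exact permutation p = 0.1, the smallest possible). Ncapd2, also of condensin I, had a log2 fold change of -1.02 at the second step (adjusted p = 0.0081, limma) and was no longer called without bFGF/BMP4 replicate 3 (-0.93) or BMP4 replicate 2 (-0.95). Top2a, which untangles sister DNA, had -2.47 at that step (adjusted p = 6.8e-04, limma), and Mki67, which coats mitotic chromosomes, had the same value.

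The spindle assembly checkpoint genes also fell unequally. Bub1 and Ttk (Mps1), kinases that start the checkpoint signal, Bub1b (BubR1) and Mad2l1 (Mad2), which with Bub3 and Cdc20 form the complex that inhibits APC/C, and Bub3 itself were called lower in both comparisons with bFGF/EGF. Bub3 (chr7:131161880-131178553), the binding partner of Bub1 and BubR1, was at 29.8, 26.5 and 19.7 FPKM with bFGF/EGF, 10.3, 11.5 and 13.4 with bFGF/BMP4 and 12, 14.9 and 10.4 with BMP4. The libraries of both BMP4-containing media overlapped (log2 fold change 0.08 with a standard error of 0.19, adjusted p = 0.83, limma), and the gene kept 46.3% and 49.1% of its bFGF/EGF level. Its fall was close to the fold threshold (-1.09 and -1.01) and in BMP4 against bFGF/EGF it was not called without bFGF/EGF replicate 1 (-0.89) or 2 (-0.97) or BMP4 replicate 1 (-1) or 3 (-0.89). Bub1 was at 12.9, 5.41 and 7.26 FPKM, then 1.64, 3.35 and 3.43, then 0.381, 0.496 and 0.501, with no overlap and limma values of -1.54, -3.86 and -2.31 on the log2 scale (adjusted p = 0.0046, 9.8e-06 and 0.0011). The ratio of Bub1b to Bub3 was 0.638 ± 0.12, 0.419 ± 0.020 and 0.131 ± 0.040 (mean ± SD, n = 3), lower in each group than in the one before with no overlap (exact permutation p = 0.1, the smallest possible). Mad2l1 missed the fold threshold in BMP4 against bFGF/BMP4 (-0.93, adjusted p = 0.016, limma) and was called without bFGF/BMP4 replicate 1 (-1.08). Ttk was called there (-1.52, adjusted p = 0.012, limma), but not without bFGF/BMP4 replicate 3 (-1.35).

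Securin was the member that rose. Pttg1 (securin, chr11:43311071-43321000) inhibits separase, the protease encoded by Espl1, until APC/C with Cdc20 marks it for destruction. The bFGF/EGF libraries held 3.47, 5.25 and 3.31 FPKM of Pttg1, the bFGF/BMP4 libraries 18.7, 17.1 and 17.5 and the BMP4 libraries 12.7, 21.0 and 14.6. Every library with BMP4 was above every bFGF/EGF library, and both BMP4-containing media overlapped. The log2 fold changes were 2.15 and 1.97 compared with bFGF/EGF (standard error 0.21 each, adjusted p = 2.6e-05 and 3.1e-05, limma) and -0.17 between the media (adjusted p = 0.63, limma). These values rest on 117 to 166 fragments per bFGF/EGF library and 412 to 679 per BMP4 library. Pttg1 shares 220 exon bases (8.90% of its own) with Slu7 on the opposite strand, whose means were 8.84, 11.4 and 13.7 FPKM, and the part of Slu7 in the rise was not tested.

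Espl1 went the other way. It was at 10.8, 6.63 and 5.24 FPKM with bFGF/EGF, 1.34, 1.88 and 1.96 with bFGF/BMP4 and 0.422, 0.501 and 0.534 with BMP4, with no overlap between groups (log2 fold changes -2.02, -3.65 and -1.63, adjusted p = 1.8e-04, 2.6e-06 and 0.0018, limma). In FPKM, Pttg1 was thus below Espl1 in each bFGF/EGF library, with ratios of 0.321, 0.792 and 0.632. The ratio was 13.9, 9.08 and 8.94 with bFGF/BMP4 and 30, 41.8 and 27.3 with BMP4, with means of 0.582 ± 0.24, 10.6 ± 2.8 and 33.1 ± 7.7 (SD, n = 3) and no overlap between any of the groups (exact permutation p = 0.1, the smallest possible, for each comparison). Cdc20, the APC/C activator that is the target of the checkpoint, had the highest level of the 48 genes in bFGF/EGF, 109, 67.3 and 40.3 FPKM, and was at 18.9, 21.6 and 24.7 in bFGF/BMP4 and 4.48, 5.39 and 4.77 in BMP4. Each Cdc20 group lay wholly below the one before (log2 fold changes -1.62, -3.75 and -2.13, adjusted p = 0.0012, 3.6e-06 and 5.8e-04, limma).

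**Figure D4:**
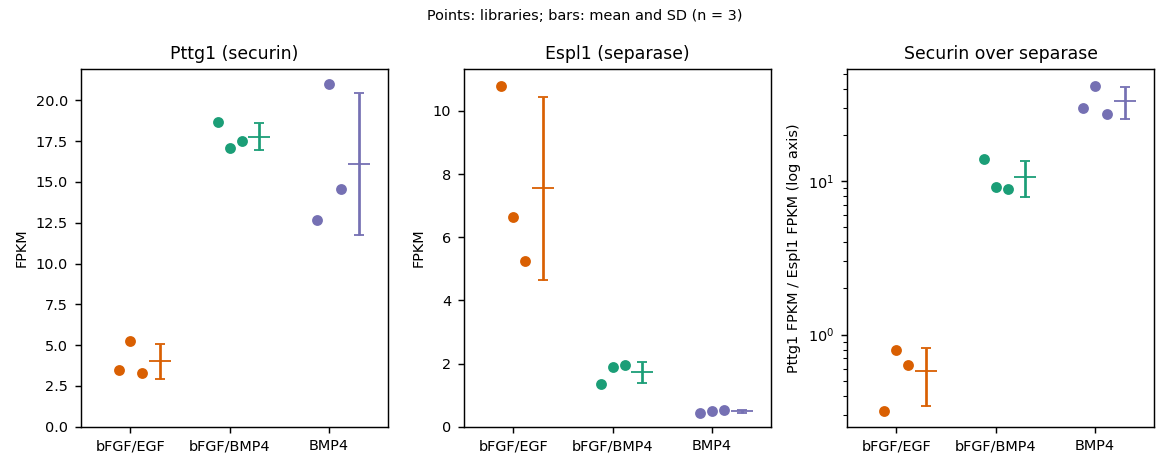
Levels of Pttg1 and Espl1 (FPKM, left and middle) and their ratio (right, log axis) in each library (points), with mean and SD (bars, n = 3). Pttg1 is higher and Espl1 lower in both BMP4-containing groups than in bFGF/EGF, and the mean ratio goes from 0.582 to 10.6 to 33.1.

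At the kinetochore, the 9 members were all lower in BMP4 than in bFGF/EGF (median -3.49), 6 were called in bFGF/BMP4 against bFGF/EGF (median -1.38) and 8 in BMP4 against bFGF/BMP4 (median -1.85). The Ndc80 complex, which grips microtubule ends, has 4 subunits. The ratios of their transcripts differed between the groups in these libraries, a description that the permutation test could not establish. Spc25 (chr2:69009753-69036574) was at 17.9, 9.52 and 8.75 FPKM with bFGF/EGF, 6.89, 9.30 and 9.66 with bFGF/BMP4 and 2.12, 2.67 and 2.13 with BMP4. The first 2 groups overlapped (log2 fold change -0.42 with a standard error of 0.26, adjusted p = 0.21, limma), and BMP4 was apart from both (-1.85 against bFGF/BMP4, adjusted p = 6.7e-04, limma). Spc24, which dimerizes with Spc25, had 12.3, 10.2 and 7.43 FPKM, then 2.76, 3.67 and 3.09, then 0.622, 0.648 and 0.636. It was apart in all groups, with -1.60, -3.75 and -2.15 (adjusted p = 1.1e-04, 3.6e-07 and 5.6e-05, limma). The BMP4 values of Spc24 rest on 26 to 27 fragments per library. The ratio of Spc24 to Spc25 was 0.872 ± 0.19, 0.372 ± 0.045 and 0.278 ± 0.031 (mean ± SD, n = 3).

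Nuf2 and Ndc80, which form the other dimer of the complex, differed in the same manner. Nuf2 was at 13.7, 7.54 and 6.93 FPKM, then 3.30, 4.88 and 5.37, then 2.19, 2.12 and 2.18, with no overlap, and its values of -1 at each step fell just short of the fold threshold (adjusted p = 0.0099 and 0.022, limma). Leaving out bFGF/EGF replicate 2 or 3 or bFGF/BMP4 replicate 2 or 3 brought the first step past it (-1.07 to -1.18), and leaving out bFGF/BMP4 replicate 1 the second (-1.20). Ndc80 fell by 1.72 and 3.51 on the log2 scale compared with bFGF/EGF, and the ratio of Ndc80 to Nuf2 was 0.452 ± 0.075, 0.260 ± 0.028 and 0.121 ± 0.0080 (mean ± SD, n = 3). For both dimers the ratio had no overlap between groups (exact permutation p = 0.1, the smallest possible, for each comparison). Spc25 shares 52.5% of its exon bases with Nostrin on the opposite strand, but the group means of Nostrin were at most 0.132 FPKM.

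Of the other kinetochore members, Knl1, the scaffold that docks the checkpoint proteins, Cenpa, the histone that marks the centromere, and Cenpe, a motor that carries chromosomes to the spindle's middle, were called lower in all 3 comparisons (-3.49, -3.49 and -3.72 in BMP4 against bFGF/EGF). Cenpf, a large protein of the outer kinetochore, was at 7.86, 2.93 and 5.36 FPKM in bFGF/EGF and 1.95, 3.02 and 2.59 in bFGF/BMP4, which overlapped (-0.98, adjusted p = 0.032, limma; called without bFGF/EGF replicate 2 at -1.35 or bFGF/BMP4 replicate 2 at -1.12), and fell to 0.682, 0.856 and 1.01 in BMP4. Knstrn, which helps to keep sister chromatids aligned and to bind spindle ends, was at 20.8, 11.6 and 9.83 FPKM, then 5.23, 6.03 and 6.67, then 0.752, 0.898 and 1.22. The step from bFGF/BMP4 to BMP4 was the larger for it (-1.15 and -2.54, adjusted p = 0.0057 and 1.3e-04, limma).

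All 8 spindle motors and microtubule proteins were called lower in both comparisons with bFGF/EGF (medians -1.46 and -3.51), and 7 in BMP4 against bFGF/BMP4 (median -2.05). They were Kif11 (Eg5, which pushes the spindle poles apart), Kif2c (a microtubule depolymerase that corrects attachments), Kif4 (a chromosome-bound motor), Kif18a (which damps chromosome movements), Tpx2 (which activates Aurora A and nucleates microtubules), Hmmr (which binds spindle microtubules), Aspm (a spindle pole protein) and Nusap1 (which bundles microtubules). Kif2c had the largest of these falls in both comparisons with bFGF/EGF, though not in BMP4 against bFGF/BMP4, from 18.9, 11.7 and 8.07 FPKM in bFGF/EGF to 2.13, 2.64 and 3.04 in bFGF/BMP4 and 0.565, 0.693 and 0.681 in BMP4. The groups were apart, with limma values of -2.19, -4.04 and -1.85 on the log2 scale (adjusted p = 1.3e-04, 1.8e-06 and 0.0011). Kif18a was the exception at the second step, with 0.829, 1.25 and 1.22 FPKM in bFGF/BMP4 and 0.608, 0.622 and 0.666 in BMP4. Although these libraries did not overlap, the difference was not called (-0.69, adjusted p = 0.17, limma). Aspm was at 13.1, 4.18 and 6.09 FPKM, then 2.64, 3.70 and 3.76, then 0.542, 0.442 and 0.607, and the groups did not overlap. Its value at the first step (-1.04, adjusted p = 0.035, limma) ran from -1.40 to -0.59 with single libraries left out and was not called without any of bFGF/EGF replicates 1 and 3 and bFGF/BMP4 replicates 1, 2 and 3, while that at the second (-2.45, adjusted p = 8.4e-04, limma) was called with each library left out. Kif4 shares 11.1% of its exon bases with Pdzd11 on the opposite strand, which was at 19.8, 15.0 and 20.0 FPKM while Kif4 was at 11, 3.24 and 0.656.

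The 6 genes of the central spindle and cytokinesis were called lower in every comparison, with medians of -1.27, -3.03 and -1.69. Prc1, which bundles the antiparallel microtubules of the central spindle, was at 19.7, 9.82 and 9.13 FPKM with bFGF/EGF, 3.9, 5.83 and 6.82 with bFGF/BMP4 and 1.33, 0.946 and 1.11 with BMP4. All groups were apart (log2 fold changes -1.15, -3.32 and -2.17, adjusted p = 0.010, 1.0e-05 and 6.8e-04, limma). The first of these was also lost without bFGF/BMP4 replicate 1 (-0.93), as was that of Kif20b (-0.90). Kif23, the motor of the centralspindlin complex, and Ect2, the activator of RhoA that it recruits, had much the same ratio in each group. It was 0.327 ± 0.0015 with bFGF/EGF, 0.317 ± 0.0095 with bFGF/BMP4 and 0.303 ± 0.044 with BMP4 (mean ± SD, n = 3), and the log2 differences of -0.05, -0.12 and -0.07 had exact permutation p of 0.3, 0.4 and 0.7 (two-sided). They fell to 9.81% and 10.6% of their bFGF/EGF levels in BMP4. The motors Kif20a, which carries the passenger complex to the central spindle, and Kif20b and the scaffold anillin (Anln), which links the contractile ring to the membrane, had log2 fold changes of -3.44, -2.85 and -2.82 in BMP4 against bFGF/EGF. Kif20a shares 54.8% of its exon bases with Cdc23 on the opposite strand, which was at 10.8, 7.85 and 6.83 FPKM. Anln was no longer called in BMP4 against bFGF/BMP4 without bFGF/BMP4 replicate 3 (-1.18, and with all libraries -1.37, adjusted p = 0.012, limma).

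The division of the total fall between both steps varied among the members. For 31 of the 48, a count not made over all genes, the value was more negative in BMP4 against bFGF/BMP4 than in bFGF/BMP4 against bFGF/EGF. Apart from Pttg1, the widest gaps of this kind were those of Spc25 (-0.42 and -1.85), Aspm (-1.04 and -2.45), Knstrn (-1.15 and -2.54) and Prc1 (-1.15 and -2.17). At the other end stood Bub3 (-1.09 and 0.08), Smc4 (-1.51 and -0.32), Kif18a (-1.42 and -0.69), Mad2l1 (-1.65 and -0.93) and Smc2 (-1.38 and -0.71). The difference between the steps was not tested, both share the bFGF/BMP4 libraries, and the plot of one against the other gives each gene's own values with their standard errors.

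**Figure D5:**
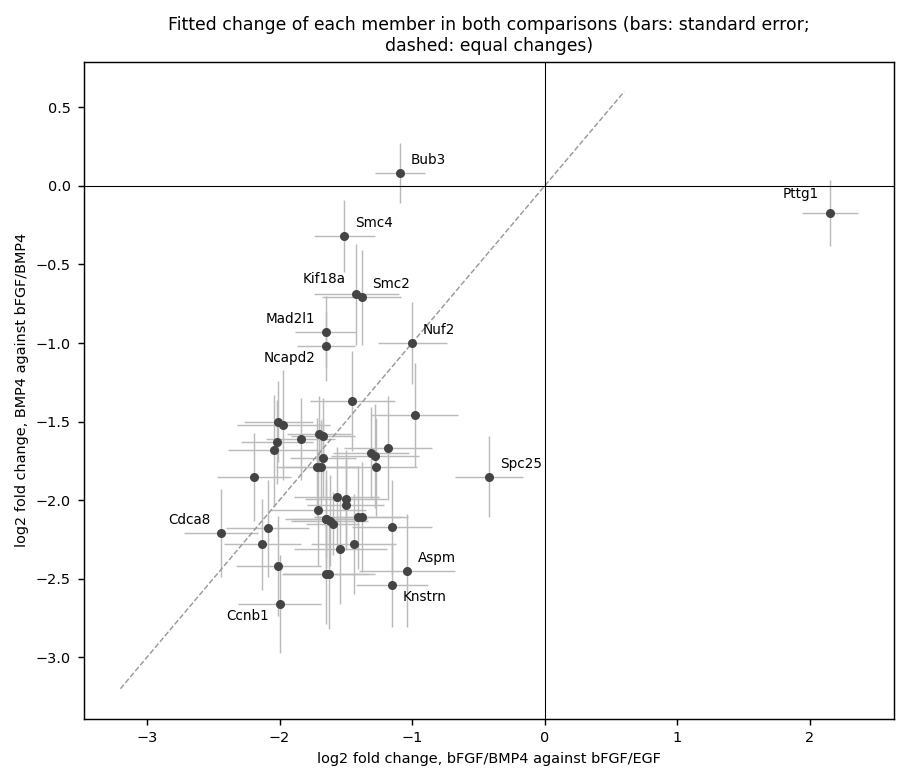
Log2 fold change of each of the 48 genes in bFGF/BMP4 against bFGF/EGF (x axis) and in BMP4 against bFGF/BMP4 (y axis), with standard errors from limma. Both axes share the bFGF/BMP4 libraries. Genes below the dashed line of equal change (31 of 48) have the more negative value on the y axis, and Pttg1 at 2.15 and Bub3 at 0.08 are above 0 on an axis.

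Genes of the same machinery outside the 48 were counted from lists. Of all genes tested, 14.1%, 15.4% and 5.14% were called lower in the 3 comparisons, and 16.5%, 21.3% and 8.41% higher. Of 33 other kinetochore genes, 19, 22 and 16 were called lower in the 3 comparisons (medians -1.22, -2.21 and -0.96). With the largest falls between the BMP4-containing media, Cenpi, of the inner kinetochore, was at 6.14, 3.75 and 2.94 FPKM with bFGF/EGF, 1.22, 2.39 and 2.73 with bFGF/BMP4 and 0.336, 0.380 and 0.480 with BMP4 (-2.08, adjusted p = 0.0017, limma), and Spdl1, which recruits dynein to kinetochores, had -1.90 (adjusted p = 0.0060, limma). Among 28 other checkpoint, cohesion protection and kinase genes, 20, 24 and 18 were lower and 1, 2 and 1 higher (medians -1.72, -2.89 and -1.42). Pbk, a mitotic kinase, fell from 13.4, 19.7 and 24.0 FPKM in bFGF/BMP4 to 2.92, 2.90 and 2.84 in BMP4, and Nek6, a kinase related to Nek2, rose from 5.48, 8.05 and 7.91 to 19.7, 21.0 and 17.1 (1.43, adjusted p = 2.4e-04, limma).

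The list of 33 other spindle and centrosome genes had fewer calls, with 18, 18 and 12 lower and 1 higher in the last comparison (medians -1.09, -1.48 and -0.58). Ckap2l, a spindle protein of neural progenitors, was at 8.71, 12.2 and 13.6 FPKM in bFGF/BMP4 and 2.22, 1.87 and 1.80 in BMP4 (-2.47, adjusted p = 2.1e-04, limma). Stmn1 (stathmin), a microtubule destabilizer also abundant in neuroblasts, was at 190, 153 and 108 FPKM in bFGF/EGF and 35.7, 39.7 and 43.4 in bFGF/BMP4. In BMP4 it was at 72.3, 112 and 65.0, above bFGF/BMP4 (1.03 between the media, adjusted p = 0.012, limma). Of 21 other cytokinesis and abscission genes, 7, 6 and 7 were lower (14.1%, 15.4% and 5.14% of all genes). In BMP4 against bFGF/BMP4, 1 was higher (8.41%). The medians were -0.19, -0.29 and -0.22, against 0.06, 0.10 and 0.00 over all genes. Iqgap3, a scaffold of the cell cortex, had -1.22, -3.16 and -1.95 (adjusted p = 0.0075, 1.3e-05 and 0.0012, limma). Myh10, a non-muscle myosin heavy chain used in the contractile ring and in cell migration, was at 36.2, 27.9 and 32.3 FPKM with bFGF/EGF, 13.8, 12.6 and 14.3 with bFGF/BMP4 and 33.8, 24.0 and 32.3 with BMP4. The bFGF/BMP4 libraries were thus below both other groups with no overlap (-1.23 against bFGF/EGF and 1.13 for BMP4 against bFGF/BMP4, adjusted p = 1.0e-04 and 5.2e-04, limma).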

How the data were processed

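Bulk RNA-seq of 9 libraries was used. According to the study's methods and the submitters' processing notes, the authors cleaned reads with fastp 0.19.7, aligned them to mm39 (GRCm39) with HISAT2 2.0.5 and counted them with featureCounts 1.5.0-p3, and they deposited FPKM values for 55704 genes. The annotation release and the strand setting of the counting are not given in the sources used here. The authors' library total was 0.9446 to 1.102 times (in relative units) the fragments on genes rebuilt from the values, and how it was set is not stated, so scaling alternatives were run. Exon lengths, overlapping exons and gene positions came from GENCODE vM39, which may differ from the annotation behind the FPKM values.

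The study's supplement gives raw counts, which were not used here. The values used are the deposited FPKM, so a count model was not fitted. In its place, limma 3.58.1 (R 4.3.3) with a trend was fitted to log2(FPKM + 0.1) of all 9 libraries for the 20207 genes with a mean of at least 0.1 FPKM, with Benjamini-Hochberg adjustment over all of them and the study's threshold (adjusted p of at most 0.05, fold change of at least 2). Groups came from the treatment labels. The limma script was tested on simulated data. Summaries, exact permutation tests, the promoter search and figures used Python 3.11.15 with pandas 2.3.3, numpy 2.4.6, scipy 1.17.1 and matplotlib 3.10.9. The 48 genes, the lists of related genes and the tests were chosen with earlier results of these data known. All 48 genes are named. From each list, the 2 genes with the largest fall and the 2 with the largest rise past the threshold in BMP4 against bFGF/BMP4 among those with a mean of at least 1 FPKM could be named. Of the spindle and centrosome list, 33 of 34 symbols were found.

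Alternatives were pseudocounts of 1 and 0.01, a minimum mean of 1 FPKM or none, other scalings (median ratio, TPM and quantiles), limma-voom with the rebuilt fragment numbers, replicate number as a block, fits of each pair of groups alone, no fold threshold, and leaving out every library in turn. The fragments behind a value set its counting error and not the spread between libraries. They are given for only some of the genes with few.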

Additional observations from a re-analysis of the deposited data

How the results depend on the processing

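Over the 20 alternatives, 2814 of 2880 values of the 48 genes in the 3 comparisons kept their direction and their side of the threshold, 39 lost the call, 25 gained it and 2 changed sign. Both changes of sign were of Bub3 in BMP4 against bFGF/BMP4, which was not called: -0.01 without bFGF/BMP4 replicate 1 and -0.06 without BMP4 replicate 2, in a range of -0.06 to 0.20 over the libraries left out. A pseudocount of 1, which by construction shrinks the fold changes of low values, moved the members' median to -2.63 in BMP4 against bFGF/EGF and to -1.25 in BMP4 against bFGF/BMP4, where 32 members were called. With it, the numbers of all genes called lower in the 3 comparisons were 1821, 2038 and 559 in place of 2847, 3103 and 1039, and those called higher 1723, 2326 and 890 in place of 3327, 4297 and 1699. With single libraries left out, 37 to 47, 47 to 48 and 38 to 43 members were called, with medians of -1.76 to -1.26, -3.71 to -3.15 and -1.99 to -1.73. The replicate block gave 45, 48 and 41 called members, as without it. Same-numbered libraries of different groups had correlations of -0.084 to 0.125 in their deviations from the group means, and 1 of 9 such pairs was above 0.1, so the numbers were not taken as pairs. Quantile normalization moved the median of all genes in BMP4 against bFGF/EGF from 0.10 to -0.035, and the members' median there was -3.68. Members with few fragments in BMP4, such as Ccnb2 with 18 in replicate 1, are limited by counting error.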

Other observations

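The genes that act just before and around mitosis did not all follow the 48. Of 42 DNA replication genes, 37 were called lower in bFGF/BMP4 against bFGF/EGF (14.1% of all genes tested) and 37 in BMP4 against bFGF/EGF (15.4%). In BMP4 against bFGF/BMP4, 18 were called lower (5.14%). Their median log2 fold changes were -2.02, -2.87 and -0.84 in this order (limma). Their median was thus below that of the mitotic genes at the first step (-1.61) and above it at the second (-1.82), a difference that was not tested. Mcm5, a subunit of the replicative helicase, was at 68.8, 61.9 and 37.8 FPKM in bFGF/EGF, 5.27, 11.3 and 10.5 in bFGF/BMP4 and 1.91, 2.12 and 1.85 in BMP4. Chaf1b, of a histone chaperone that follows the replication fork, fell by 2.92 on the log2 scale at the first step and by 2.06 at the second.

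Of the 17 APC/C subunits and E2 enzymes, 1, 3 and 1 were called lower (14.1%, 15.4% and 5.14% of all genes tested), with medians of -0.43, -0.45 and -0.11. Those lower in BMP4 against bFGF/EGF were Ube2c, Ube2s (-1.72, adjusted p = 1.4e-04, limma) and Anapc15 (-1.06, adjusted p = 0.0012, limma), of which the last 2 were named after their values were seen. Ube2c, an E2 enzyme that starts ubiquitin chains for APC/C, was at 67.3, 44.7 and 31.0 FPKM, then 6.99, 9.83 and 12.4, then 2.13, 2.18 and 2.26, which did not overlap (-2.24, -4.31 and -2.06, adjusted p = 9.6e-05, 1.0e-06 and 4.7e-04, limma). Of 16 other condensin and cohesin genes (medians -0.24, -0.50 and -0.29), 3, 4 and 2 were lower and 1 was higher at the first step (16.5% of all genes). Those lower at the second step were Ncaph, the kleisin subunit of condensin I (-1.71, adjusted p = 0.0029, limma), and Esco2, which acetylates cohesin in S phase (-2.12, adjusted p = 0.0013, limma). Among 23 regulators of cell cycle transcription (medians -0.87, -1.04 and -0.19), 10, 13 and 6 were lower. Compared with bFGF/EGF, 2 and 3 were higher (16.5% and 21.3% of all genes). The E2F repressors E2f7 and E2f8 fell by 4.48 and 3.91 on the log2 scale in BMP4 against bFGF/EGF.

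Outside the 48 genes, the profile over the 9 libraries most like the mean of the members was that of Ccna2, the cyclin of S and G2 phase (Pearson's r = 0.997 on the log2 scale). Next were Melk, a mitotic kinase (0.994), Ube2c (0.994), Usp1, a deubiquitinase of DNA repair (0.992), and Nova1, an RNA-binding protein best known from neurons (0.992). These values mostly describe the order of the 3 groups, which all such genes share. Usp1 kept 22.1% and Nova1 25.3% of the bFGF/EGF level in BMP4, more than the median member (7.16%). Among the members themselves, r with that profile was -0.773 for Pttg1, 0.779 for Bub3 and 0.896 for Smc4.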
